A study of Mus musculus with 12 samples.

Results

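The cytosolic ribosomal protein genes encode the proteins of the ribosome that works outside the mitochondria, and their H3K27ac marking was measured here in newborn mouse hearts. They were taken as all protein-coding mm10 RefSeq genes on chromosomes 1 to 19 whose symbol is Rpl or Rps followed by a digit, together with Rplp0, Rplp1, Rplp2 and Rpsa. The 8 Rps6k genes, which encode kinases, and 2 genes with a pseudogene suffix, Rpl34-ps1 and Rpl31-ps12, were left out. This gave 85 of 21887 protein-coding genes. Of these, 40 encode core proteins of the large subunit, 3 the ribosomal stalk and 30 core proteins of the small subunit, together 73 core genes. A further 11 are paralogs or copies of core genes. The last, Rps19bp1, encodes a protein that binds Rps19 and is not a ribosomal protein, although its symbol meets the rule.

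H3K27ac is an acetylation of histone H3 found at active promoters and enhancers. Whole hearts at postnatal day 0 were profiled for it by ChIP-seq. The edKO hearts (numbered 1, 3 and 6) carry a cardiomyocyte-specific RXRab-/- deletion, which removes the retinoid X receptors RXRα and RXRβ from cardiomyocytes but not from the other cells of the heart. The WT hearts (numbered 1, 3 and 4) are wild type at the same age. Each heart is a biological replicate and no treatment is given for either genotype. The promoter that drives the deletion is not given in the sources used here.

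A ribosome is built from ribosomal RNA and a near-fixed set of proteins, so the genes for these proteins must be expressed together, and every growing cell expresses them. Their mRNAs are known for a terminal oligopyrimidine tract, an unbroken run of C and T that begins at the first base and through which TOR signalling controls their translation. Their promoters are used in almost all tissues, which makes them a housekeeping reference for a mark of active promoters.

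Runs of C and T over the annotated start, and the neighbouring promoter motifs, can be read from the RefSeq promoter table of GRCm38.p6. It had an entry for 65 of the 85 genes, 53 of them core genes. Each line below runs from 60 bases before the annotated start to 24 bases from the start onwards, 5′ to 3′ on the gene's strand. Capitals mark the run of C and T over the start where it has at least 5 bases, and any motif searched that lies within the window. The first 5 promoters are shown because their runs over the start are among the longer ones and because they come from both subunits and the stalk.
Rps18 (chr17:33955642-33955725, minus strand): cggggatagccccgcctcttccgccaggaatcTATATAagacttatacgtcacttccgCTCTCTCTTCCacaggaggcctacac
Rps15a (chr7:118116124-118116207, minus strand): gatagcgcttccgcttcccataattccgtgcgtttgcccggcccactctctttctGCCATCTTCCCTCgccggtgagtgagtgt
Rplp2 (chr7:141447591-141447674, plus strand): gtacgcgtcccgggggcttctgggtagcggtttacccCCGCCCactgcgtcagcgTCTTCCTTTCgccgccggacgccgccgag
Rpl38 (chr11:114668520-114668603, plus strand): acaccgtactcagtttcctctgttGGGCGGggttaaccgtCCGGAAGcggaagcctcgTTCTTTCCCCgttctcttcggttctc
Rps6 (chr4:86857344-86857427, minus strand): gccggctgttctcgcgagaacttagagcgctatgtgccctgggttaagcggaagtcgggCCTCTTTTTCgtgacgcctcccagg
The run over the start spans 11 bases in Rps18, 9 in Rps15a and 10 in each of Rplp2, Rpl38 and Rps6. In Rps15a it overlaps the end of a reverse match to AAGATGGC. In all 5 the run includes bases before the annotated start, so its length is not that of the tract in the mRNA. The share below counts such runs too and is not a share of mRNAs with the tract. A run of at least 5 bases lay over the annotated start in 17 of 53 core promoters (32.1%), against 8.6% of all 17492 promoters in the table.

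Motifs were searched by exact letters on both strands in the whole window of the table, from 250 bases before the start to 50 after it. For TATAAA and TATATA the search did not take both strands. CCGGAAG, the letters bound by ETS factors such as GABP, occurred in 22 of 53 core promoters (41.5%) against 11.9% of all promoters. AAGATGGC, the letters of YY1, occurred in 5 (9.43% against 3.21%), and the GC box GGGCGG in 31 (58.5% against 46.3%). The E-box CACGTG bound by Myc occurred in 5 (9.43% against 7.91%). TATAAA occurred in 3 (5.66% against 8.99%) and TATATA in 5 (9.43% against 5.95%); overlapping matches count for both. The exact letters of a DR1 element, a direct repeat of the kind that RXR dimers bind, were found in 0 core promoters and in 9 of all promoters (0.0515%). So strict a match is rare everywhere, and its absence describes only the letters of these windows. The median covered-length difference, edKO minus WT, was 0.072 on the log2 scale in the core genes with CCGGAAG and 0.105 in the 31 without it.

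All 73 core genes carried H3K27ac within the gene body or 10 kb of it in every heart. So did 14079 of 21887 protein-coding genes and all 78 mitochondrial ribosomal protein genes. Of the core genes, 71 of 73 (97.3%) had a called region within 1 kb of an annotated gene end in all 6 hearts. Among all protein-coding genes 52.0% had such a region in all 6 hearts, and among the 78 mitochondrial ribosomal protein genes 93.6%. Only Rps2 and Rpl17 among the core genes missed it, each in 1 heart. In edKO 3 the region at Rps2 (chr17:24718121-24721927), whose product lines the mRNA entry side of the small subunit, was called at chr17:24719301-24720905, over the start at 24720063 in the promoter table. It lay inside the annotated gene and over 1 kb from its ends. In edKO 6 a region was likewise called inside Rpl17, over 1 kb from its annotated ends.

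The lists differ in ways that touch every value below. The edKO lists held 47972, 48275 and 67708 distinct regions in hearts 1, 3 and 6, and the WT lists 57977, 62883 and 66329 in hearts 1, 3 and 4. Median region length was 1011, 665 and 550 bp in the edKO hearts and 766, 698 and 533 bp in the WT hearts. Read depth per heart is unknown, and a region that is not in a list was not called, which is not the absence of the mark. All 12 cardiomyocyte markers were covered in every heart, as were all 8 fibroblast and all 8 endothelial markers, cells that whole hearts contain. Of 6 smooth muscle and pericyte markers, 5 were covered in every heart. The remaining lists were mixed. The leukocyte genes Ptprc, Adgre1 and Lyz2, the erythroid genes Gata1, Hba-a1, Hbb-bs and Alas2, the liver genes Alb, Afp, Serpina1a and Hnf4a, and the neural genes Sox10 and Th were at 0 in all hearts. In the same lists 3 of 7 leukocyte, 3 of 7 erythroid, 1 of 6 liver and 2 of 6 neural markers were covered in every heart. The summed length over the cardiomyocyte markers ranged from 183786 to 255328 bp in edKO and from 238525 to 249627 bp in WT. In whole hearts, fewer cells of a type and less mark per cell cannot be told apart, and the other cell types, which also express ribosomal proteins, keep both receptors.

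At a typical core gene the called region sat over the start and reached further into the gene than away from it. Over the 53 core genes with a known start, the region reached a median of 689.5 bp upstream and 1134.5 bp downstream, with its summit 233 bp downstream of the start. For all genes with a region at the start these medians were 640, 916 and 195 bp, and for the mitochondrial ribosomal protein genes 654.5, 720.5 and 164 bp. Core ribosomal protein genes are short, with a median length of 3183 bp against 17169 bp for all genes, and called regions covered a median of 39.1% of the core gene body against 2.1% of all gene bodies. Even so, a single region rarely covered a whole core gene (2.52% of gene and heart pairs).

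**Figure D1:**
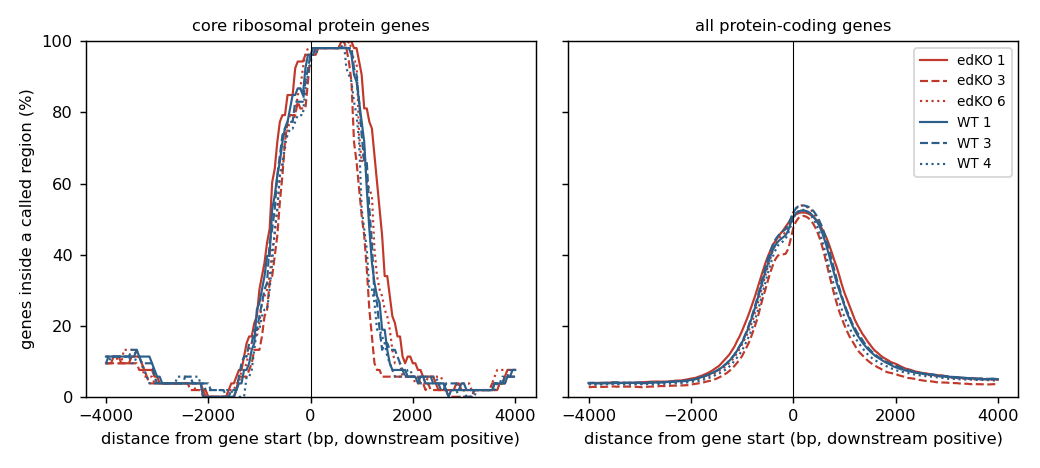
Share of genes inside a called region (vertical axis, %) by distance from the annotated start (horizontal axis, bp, downstream positive) in each edKO (red) and WT (blue) heart, for 53 core ribosomal protein genes on the left and all protein-coding genes on the right. At 500 bp downstream 98.1% of core genes were inside a region in every heart, and the hearts part mainly on the downstream shoulder, where edKO 1 is highest and edKO 3 lowest.

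The hearts differed in how far regions reached into these genes, and the spread within edKO was wider than that within WT. At 1000 bp downstream of the start, 90.6%, 50.9% and 66.0% of the core genes were inside a region in edKO 1, 3 and 6, against 77.4%, 73.6% and 52.8% in WT 1, 3 and 4. The genotypes overlap, with edKO 1 highest and edKO 3 lowest. Over all genes, the same 2 hearts were also the extremes at that distance, with 29.3% in edKO 1 and 20.2% in edKO 3.

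The width of the widest region at a gene end followed the same order. Its median over the ribosomal protein genes with a region in all hearts was 2080, 1630 and 1846 bp in edKO 1, 3 and 6, against 1881, 1852 and 1670 bp in WT 1, 3 and 4. For all 11383 protein-coding genes with a region in every heart the medians were 1903, 1426 and 1667 bp in edKO and 1704, 1742 and 1523 bp in WT. The ribosomal protein genes were thus wider than all genes in each heart. Translation factors were wider still, with medians of 2431, 1712 and 2070 bp in edKO and 2294, 2123 and 1972 bp in WT. Respiratory chain genes were wider than the ribosomal protein genes in some hearts and narrower in others, and mitochondrial ribosomal protein genes were narrower in each. Of the 77 ribosomal protein genes with a region in all hearts, 52 were widest in edKO 1 (67.5%, against 50.0% of all genes). In edKO 3, 41 were narrowest (53.2%, against 50.1%). WT 4 was narrowest at 26 (33.8%, against 28.1%).

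**Figure D2:**
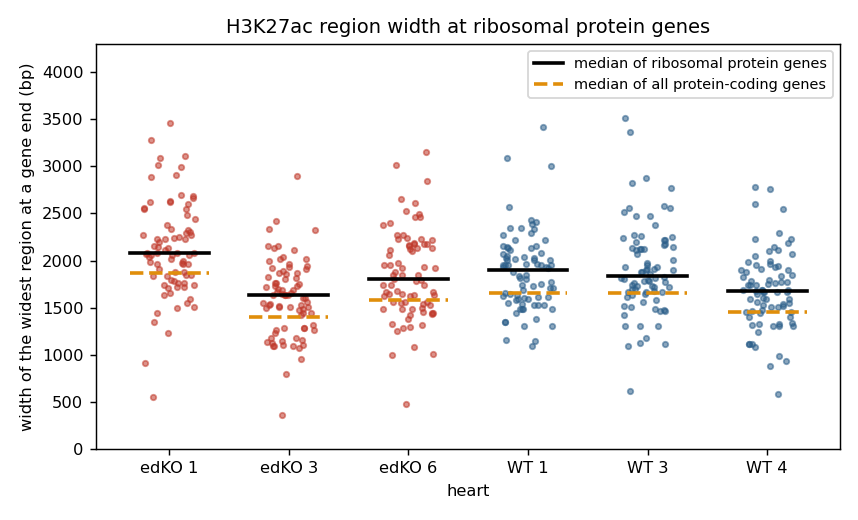
Width of the widest H3K27ac region within 1 kb of a gene end (vertical axis, bp) for each ribosomal protein gene with a region in that heart, by heart (horizontal axis). Black bars are the medians of the ribosomal protein genes and dashed orange bars the medians of all protein-coding genes with a region there. In every heart the black bar lies above the orange one, and edKO 1 and edKO 3 are the highest and the lowest heart for both.

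To ask whether marking differed between genotypes, the length covered by regions within 10 kb of each gene or inside it was compared as log2(bp + 200), centred in each heart on loci covered in all hearts, with limma over all loci. Of 85 ribosomal protein genes 82 were tested and 0 passed an adjusted p of 0.05. Over all 14317 loci 0.105% passed, all of them lower in edKO, and that number fell to between 0 and 9 loci when a heart was left out. The smallest adjusted p among the ribosomal protein genes was 0.684 in limma. At an unadjusted p under 0.05, 1 of them was higher in edKO and 0 lower, against 1.98% and 4.63% of all loci. The ribosomal protein loci had a median SD within genotype of 0.116 on the log2 scale against 0.166 over all loci. Similar sets were also below all loci, with 0.112 for ribosome biogenesis and 0.124 for respiratory chain genes. Translation factors had 0.134, mitochondrial ribosomal protein genes 0.136 and TOR pathway genes 0.179.

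Small differences leaned to the higher side. The median log2 difference, edKO minus WT, was 0.094 over the 82 genes and 0.034 over all loci, and 66 of 82 (80.5%) lay above 0 against 58.4% of all loci. Translation factors had 78.0% above 0 and mitochondrial ribosomal protein genes 74.4%, so the lean was not particular to these genes. Ribosome biogenesis genes had 67.5%, respiratory chain genes 58.4% and TOR pathway genes 36.4%. By group the median difference was 0.107 in the large subunit, 0.03 in the stalk and 0.076 in the small subunit. The median stayed above 0 under every alternative run. Scaling moved it together with the median of all loci: without centring they were 0.008 and -0.052, and with hearts centred on the core ribosomal protein loci, which by construction brings these genes near 0, they were 0.016 and -0.043. After centring, all edKO hearts lay above all WT hearts at 12 of 82 loci (14.6%), against 7.11% of all loci. All edKO hearts lay below at 0, against 5.76% of all loci. They included Rpl7, Rpl8, Rpl9, Rpl12, Rpl13, Rpl30, Rpl36 and Rpl37 of the large subunit, Rps3 and Rps6 of the small subunit, and Rps19bp1. The mean centred value over the core genes was 0.015, -0.007 and -0.090 in edKO 1, 3 and 6, against -0.094, -0.136 and -0.084 in WT 1, 3 and 4. Taken over the set, the genotypes overlapped, since edKO 6 lay just below WT 4.

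**Figure D3:**
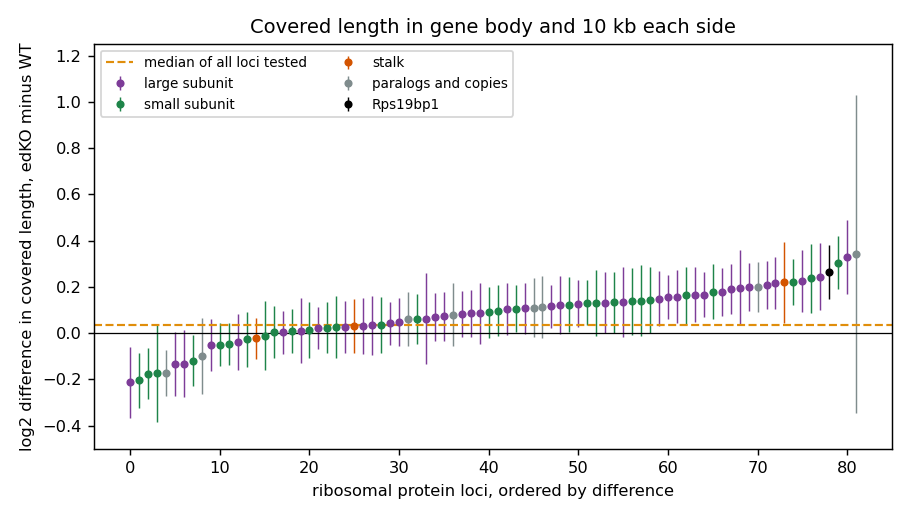
Log2 difference in covered length, edKO minus WT (vertical axis), for the 82 tested ribosomal protein loci in order of the difference (horizontal axis), coloured by role, with bars of 1 standard error. The dashed line is the median of all loci tested, 0.034. The points run from -0.213 to 0.341, with 66 of them above 0, and none passed the test.

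Among large subunit genes the extremes were Rpl19 on the low side and Rpl26 and Rpl4 on the high side. Rpl26 (chr11:68901566-68904534), whose product sits near the exit of the peptide tunnel, had 7729, 3944 and 5578 bp in edKO 1, 3 and 6, against 5425, 4767 and 3894 bp in WT 1, 3 and 4. The edKO hearts held the highest value, and edKO 3 lay within the WT range. The log2 difference was 0.33 (SE 0.16, limma adjusted p = 0.794). Rpl4 (chr9:64173387-64178562), whose product lines the peptide tunnel and whose gene contains 5 snoRNA genes, had 3949, 3260 and 2893 bp in edKO, against 3079, 3354 and 2538 bp in WT. The groups overlapped and the log2 difference was 0.24 (SE 0.14, limma adjusted p = 0.841). With each region given to its nearest gene alone, Rpl4 kept 0, 0 and 2098 bp in edKO and 1950, 2237 and 1448 bp in WT, since a region shared with a neighbouring gene then goes to one or the other.

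Rpl19 (chr11:98022003-98030493) had 3377, 3504 and 4752 bp in edKO, against 4820, 5306 and 4217 bp in WT. The log2 difference was -0.21 (SE 0.15, limma adjusted p = 0.858), and edKO 6 lay within the WT range. Within the gene body alone the lengths were 3377, 3243 and 3338 bp in edKO and 3534, 3579 and 3322 bp in WT, and the difference was 0.01. The lower window value thus came from regions outside the gene. RefSeq puts the start of Rpl19 in the promoter table at 98026710, inside the annotated gene.

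The widest regions at gene ends all belonged to the large subunit. Rpl7 (chr1:16101295-16104433) led with 3465, 2900 and 3156 bp in edKO and 3004, 3510 and 2776 bp in WT, and the groups overlapped. Rpl13a, Rpl41, Rpl37 and Rpl27a followed, with means over 6 hearts of 2799, 2792, 2535 and 2534 bp. The narrowest, among genes with a region in every heart, were Rpsa, Rpl6, Rps19bp1, Rpl3l and Rps24, with means from 1094 to 1320 bp.

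Width was tested in the same way at 80 ribosomal protein genes, and 0 passed, against 0.0406% of all 12312 genes tested. The median log2 difference was 0.056 over these genes and 0.011 over all genes. All edKO hearts were wider after centring at 8 genes (10.0%, against 4.98% of all genes) and narrower at 4 (5.0%, against 4.31%). Rpl19 was among these 4. Its gene-end width is that of a weaker region at an annotated end, since the region over its start lay over 1 kb inside the gene. The same held at Rpl18 in every heart but edKO 6. At an unadjusted p under 0.05, Rps3 and Rps15 were wider and Rpl41 narrower in edKO, against 1.48% and 2.65% of all genes. Rpl41 (chr10:128548110-128549168), which encodes the smallest ribosomal protein, had 3283, 1663 and 2273 bp in edKO 1, 3 and 6, against 3416, 3360 and 2759 bp in WT 1, 3 and 4. In edKO 3 and edKO 6 the region was called in 2 pieces, of 1100 and 1663 bp and of 2273 and 1060 bp, and in WT 1 a short piece of 295 bp was called beside the 3416 bp. Covered length, which adds the pieces, was 3283, 2763 and 3333 bp in edKO and 3711, 3360 and 2759 bp in WT, and overlapped between the genotypes (log2 difference 0.03, SE 0.11, limma adjusted p = 0.964).

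The stalk proteins Rplp0, Rplp1 and Rplp2 recruit the GTPase factors of translation to the large subunit. Rplp0 (chr5:115559467-115563729), the base of the stalk, had 6870, 3796 and 5040 bp in edKO, against 5660, 3921 and 4439 bp in WT. Rplp1 (chr9:61913283-61914510) had 2082, 1689 and 1805 bp in edKO, against 2131, 1905 and 1778 bp in WT. The groups overlapped at both loci. Rplp2, whose promoter is printed above, had 6210, 4604 and 5761 bp in edKO, against 6075, 6068 and 5640 bp in WT. The log2 differences were 0.22, 0.03 and -0.02 (SE 0.18, 0.12 and 0.09), with limma adjusted p-values of 0.868 to 0.963, and the sign of the last 2 changed between alternatives. At Rplp0 the widest gene-end region took 27.7% of the mean covered length, and the difference in the gene body alone was 0.08. Its gene-end width went the other way, with a log2 difference of -0.16 (SE 0.10).

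In the small subunit, Rps6 was the only ribosomal protein gene with an unadjusted p under 0.05 in covered length. Rps6 (chr4:86854099-86857367) encodes the protein that S6 kinases phosphorylate downstream of TOR. It had 3089, 1890 and 2657 bp in edKO 1, 3 and 6, against 2335, 2197 and 1851 bp in WT 1, 3 and 4, all of it in the region at the gene. In raw length edKO 3 lay among the WT hearts. The list of edKO 3 covered the least in total, 47.9 Mb against 59.1 to 68.3 Mb in the other hearts. After centring, the log2 values at Rps6 were -0.17, -0.42 and -0.30 in edKO and -0.50, -0.63 and -0.67 in WT, without overlap. The log2 difference of 0.30 (SE 0.12) did not pass the adjustment (limma adjusted p = 0.684), and it ranged from 0.22 to 0.37 over the alternatives. Rps3 (chr7:99477896-99483709), which shapes the mRNA entry channel, had 3558, 2955 and 3458 bp in edKO and 3147, 3015 and 2837 bp in WT, with a log2 difference of 0.22 (SE 0.10, limma adjusted p = 0.762).

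Rps19bp1 (chr15:80260614-80264306), the binding partner of Rps19, had 7993, 5703 and 7557 bp in edKO, against 6890, 6938 and 4905 bp in WT. Its raw lengths overlapped, and its log2 difference was 0.27 (SE 0.12, limma adjusted p = 0.753).

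Rps14 (chr18:60774596-60778546), Rps2 and Rps7 had the lowest differences of the small subunit. Rps14, known from the human 5q- anaemia, had 2547, 2332 and 2444 bp in edKO, against 3335, 3027 and 2749 bp in WT, and the genotypes did not overlap in raw length. The log2 difference was -0.20 (SE 0.12, limma adjusted p = 0.841), and after centring they overlapped, with edKO 3 at -0.15 and WT 3 at -0.21. Within the body and 2 kb around it the Rps14 difference was -0.01. Rps7 (chr12:28630847-28635953) had 3209, 1439 and 3026 bp in edKO, against 2483, 3154 and 3241 bp in WT, and its difference of -0.17 (SE 0.21) turned to 0.05 without edKO 3. Rps2 had 5074, 3615 and 4152 bp in edKO and 5797, 5048 and 4585 bp in WT, with a difference of -0.17 (SE 0.11) that was 0.05 in the gene body alone. Rpsa (chr9:120127766-120132369), a small subunit protein also known as a laminin receptor, had 2101, 1404 and 1918 bp in edKO, against 2026, 1735 and 1480 bp in WT (log2 difference 0.12, SE 0.12, limma adjusted p = 0.878). Its groups overlapped.

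**Figure D4:**
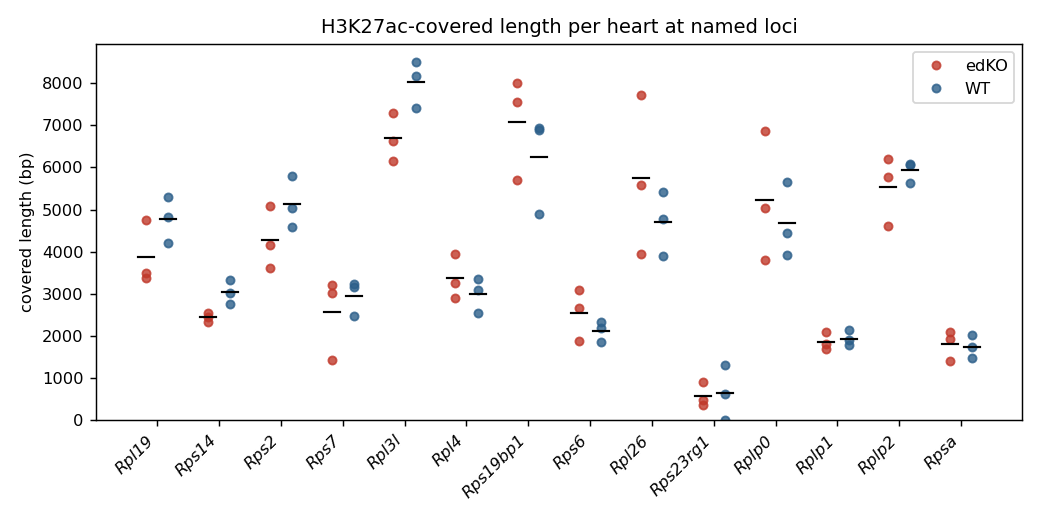
Length covered by H3K27ac regions inside each gene or within 10 kb of it (vertical axis, bp) in each edKO (red, left) and WT (blue, right) heart at the loci with the lowest and highest differences, the stalk genes and Rpsa (horizontal axis). Bars are the means of 3 hearts. In raw length the genotypes separate without overlap at Rps14 and Rpl3l, where edKO is lower, and overlap at Rps6 and Rpl26. After centring they overlap at Rps14 and Rpl3l too.

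The paralogs and copies were the exception to uniform marking. Rpl10l and Rpl39l, paralogs expressed in testis, had 0 bp in the body and 10 kb around it in all 6 hearts. Rpl32l had 877 bp in WT 1 alone. Rpl37rt and Rps27rt had no region at a gene end in any heart. With Rpl10l, Rpl39l and Rpl32l this makes 5 such genes, none of them a core gene. Rps23rg1, a copy of Rps23, had 909, 358 and 478 bp in edKO and 1306, 619 and 0 bp in WT, the least of any tested member. Its log2 difference of 0.34 (SE 0.69) was -0.43 without WT 4. The paralogs Rpl7l1, Rpl22l1, Rpl36al and Rps27l had a gene-end region in all hearts. Their log2 differences were 0.20, 0.08, 0.11 and 0.06, against -0.04 at Rpl22, the parent of Rpl22l1, and 0.14 at Rps27, the parent of Rps27l.

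The promoters of Rps27 and of Rps27rt, the copy without a gene-end region, are shown to compare their letters.
Rps27 (chr3:90213625-90213708, minus strand): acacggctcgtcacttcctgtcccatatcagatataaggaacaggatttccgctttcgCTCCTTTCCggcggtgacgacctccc
Rps27rt (chr9:114982716-114982799, minus strand): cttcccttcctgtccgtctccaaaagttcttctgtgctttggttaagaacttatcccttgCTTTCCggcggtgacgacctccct
The longest run of bases shared by the pair within the table's windows was 38, and it began at the annotated start of the copy. Before the start of the copy the longest shared run was 10 bases. At Rps27 the gene-end region measured 2549, 1518 and 1562 bp in edKO and 2048, 1522 and 1794 bp in WT. Reads from stretches that a gene and its copy share could be placed at either, and how such reads were treated is not given in the sources used here.

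Processed pseudogenes of ribosomal protein genes are far more numerous than the genes. Of 274 in the gene table, 21 (7.66%) had a called region in any heart and 3 in all hearts, Rpl30-ps6, Rpl30-ps3 and Rpl10-ps2. The numbers per heart were 13, 7 and 6 in edKO and 10, 12 and 10 in WT. Of the 198 that lie over 2 kb from any protein-coding gene, 14 had a region in any heart.

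Rpl3l (chr17:24727826-24736143), the paralog of Rpl3 that is expressed in heart and skeletal muscle, showed the lowest difference within a gene body. Its body held 2341, 2100 and 2110 bp of called regions in edKO 1, 3 and 6, against 3657, 3810 and 3215 bp in WT 1, 3 and 4. The genotypes did not overlap, and the log2 difference on body lengths was -0.58 (SE 0.12). This did not pass the adjustment over all loci (unadjusted p = 0.0021 and adjusted p = 0.283, limma). Of 80 ribosomal protein genes tested on the body alone, 0 passed, against 0.0888% of all loci, and Rpl3l was the only one with every edKO value under every WT value, against 5.81% of all loci. It was also the only one lower at an unadjusted p under 0.05, against 4.3% of all loci. On the same measure 4 were higher at that p (2.25% of all loci), and 12 had every edKO value above every WT value (6.97% of all loci). In the full window, which reaches the Rps2 promoter, Rpl3l had 7290, 6147 and 6632 bp in edKO and 8505, 8178 and 7408 bp in WT (log2 difference -0.17, SE 0.10, limma adjusted p = 0.841). These raw lengths did not overlap, but after centring the genotypes did, with edKO 3 at 1.18 and WT 3 at 1.17. Rpl3 itself (chr15:80077781-80083406) had 4526, 4339 and 5231 bp in edKO and 4942, 6674 and 5020 bp in WT (log2 difference -0.14, SE 0.14, limma adjusted p = 0.880).

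Inside Rpl3l, a region at chr17:24728930-24730058 was called in each of the 3 WT hearts and in 0 edKO hearts. It was weak, with a deposited fold of at most 4.0, and it was called as 1 or 2 short pieces in each WT heart. A stronger region further inside the gene was called in every heart. It measured 2028 bp in edKO 1, 1375 bp with a second piece of 314 bp in edKO 3, and 1806 bp in edKO 6, against 2302, 2224 and 1827 bp in WT 1, 3 and 4. The region at the far end of the gene, which supplies its gene-end width, measured 1232, 1316 and 1327 bp in edKO, against 1351 and 1617 bp in WT 1 and 3. In WT 4 it was called in 3 pieces of 416, 580 and 539 bp. The exons of Rpl3l were not used here.

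Over all ribosomal protein windows, no other region separated the genotypes in this way, in either direction. At core gene ends the union of the 6 lists held 84 regions, of which 79 (94.0%) were called in all hearts. In the whole union 35.8% of 79293 regions were, but it also holds regions away from gene ends, so the shares are not of like regions. Elsewhere in core windows it held 109 regions, and 57 (52.3%) were called in all hearts. The whole union held 57 regions called in every edKO heart and in no WT heart, and 854 with the reverse.

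The deposited fold, which is the authors' own value for each peak, placed these genes high within each list but not at the top. The median percentile of the strongest gene-end region was 92.0, 90.6 and 93.3 in edKO 1, 3 and 6 and 91.9, 93.2 and 92.5 in WT 1, 3 and 4. For all genes with such a region the medians were 86.0, 86.2 and 90.4 in edKO and 87.8, 89.3 and 90.1 in WT. The 93 respiratory chain genes, which supply the energy of the heart, ranked higher in each heart, between 94.3 and 97.4. Rpl21 ranked highest on average, at 98.5, 99.2 and 99.4 in edKO and 98.9, 97.9 and 96.0 in WT. At Rpl19, and at Rpl18 outside edKO 6, the percentile is that of a weaker region than the one over the start. Lists of different lengths give different ranks, so no genotype difference is read from these values.

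**Figure D5:**
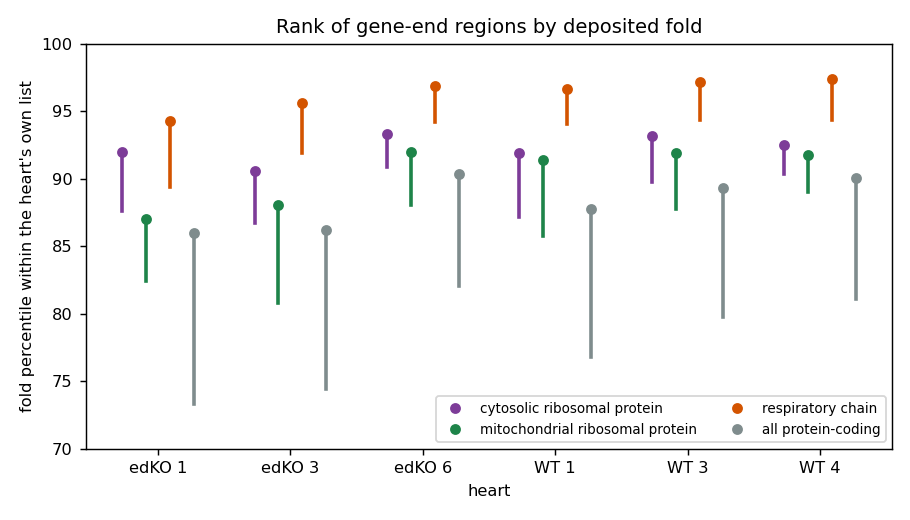
Percentile of the strongest gene-end region by deposited fold within each heart's own list (vertical axis), by heart (horizontal axis), for 4 gene sets. Points are medians and lines reach down to the lower quartile. In each of the 6 hearts the cytosolic ribosomal protein genes lie above all protein-coding genes and below the respiratory chain genes.

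Many ribosomal protein genes carry snoRNA genes in their introns, which guide the modification of ribosomal RNA. At least 1 annotated snoRNA gene lay inside 28 of 73 core genes (38.4%), against 1.7% of all protein-coding genes. The median gene-end width was 1886 bp in these hosts and 1790 bp in the other 45 core genes. Their median percentiles were 93.8 and 91.7, and their median log2 differences, edKO minus WT, 0.077 and 0.098. Across the 73 core genes, covered length rose with the number of other protein-coding genes in the window (Spearman's rho 0.61). Width had a rho of -0.23 with gene length and 0.24 with fold percentile over 71 genes. These are descriptions across genes that share the same 6 hearts.

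No locus of the other translation lists passed the test. Of 41 translation factor loci tested 0 passed, with a median log2 difference of 0.103, and of 40 ribosome biogenesis loci 0 passed, with a median of 0.043. Of 11 TOR pathway loci 0 passed (median -0.017), of 78 mitochondrial ribosomal protein loci 0 (median 0.074) and of 89 respiratory chain loci 0 (median 0.02). Efl1, a GTPase that frees new large subunits for translation, had the lowest difference of the biogenesis genes, with 3077, 2310 and 3525 bp in edKO against 4922, 5101 and 3932 bp in WT. The groups did not overlap, and the difference of -0.54 (SE 0.12) did not pass (limma adjusted p = 0.249). Mrpl1 had the lowest of the mitochondrial ribosomal protein genes, with 1714, 1226 and 1453 bp in edKO against 2658, 2086 and 2795 bp in WT (log2 difference -0.62, SE 0.16, limma adjusted p = 0.342).

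The other extremes were Gspt1 (-0.19) and Eef1d (0.28) among translation factors, Gar1 (0.36) among biogenesis genes, and Rptor (-0.31) and Tsc2 (0.18) in the TOR pathway, all as log2 differences. Mrpl57 had 0.28 and the complex I gene Ndufs5 0.26. Ndufa3, also of complex I, came nearest to the threshold, with 2509, 1705 and 2129 bp in edKO against 3822, 4270 and 4417 bp in WT, without overlap (log2 difference -0.84, SE 0.12, limma adjusted p = 0.0677).

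Of ribosomal components whose symbols fall outside the rule, Rack1, a scaffold on the small subunit, had 3621, 2306 and 3744 bp in edKO against 2637, 3200 and 2195 bp in WT (log2 difference 0.32, SE 0.13, limma adjusted p = 0.738). Fau, which encodes a ribosomal protein fused to a ubiquitin-like protein, had a difference of -0.14 (SE 0.12, limma adjusted p = 0.872). The loci of the targeted receptors, Rxra and Rxrb, had differences of -0.06 and 0.00 (SE 0.26 and 0.10), which in whole hearts does not check the deletion.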

How the data were processed

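H3K27ac ChIP-seq of 3 edKO and 3 WT hearts was used, and the 6 inputs, which have no lists, were not. Per the submitters' processing notes the builds were mm10 and GRCm38 and the tools MACS2, SAMtools, BWA and cutadapt, with no version stated. The sources used here do not give the MACS2 settings or how inputs entered. The authors deposited 1 narrowPeak list per heart, with start, end and summit coordinates, a fold enrichment (a ratio) and −log10 p-values and q-values per peak. Depth per heart is unknown; the labels give only a series average.

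Entries of the same region were merged. Gene bodies and promoters came from RefSeq tables of GRCm38.p6, and no genome sequence was used. Covered length was summed over the body and 10 kb on each side, with at least 500 bp on average required. Gene-end width is that of the widest region within 1 kb of an annotated end, in genes with one in at least 3 hearts. Both were taken as log2(bp + 200), centred per heart, and tested with limma 3.58.1 (trend, robust) in R 4.3.3 on genotype, with p-values adjusted over all loci by Benjamini-Hochberg at 0.05. On this scale the change of short lengths is understated. The test was tried on simulated data. The planted changes were larger than the covered-length differences at these genes in the main run. How the test does at such small differences was not examined. Tables and plots used pandas 2.3.3, matplotlib 3.10.9, numpy 2.4.6 and scipy 1.17.1 in Python 3.11.15. The windows of Rps2 and Rpl3l overlap, so their regions are shared.

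The genes and lists were chosen with earlier results of these data known. Named genes are the 5 lowest and 5 highest covered-length differences, the 5 widest and 5 narrowest gene-end regions, genes without a gene-end region in some heart, stalk genes, Rpsa, paralogs, and the extremes of the other lists. The region in Rpl3l, Rpl21, Rps3, Rps15 and the promoters shown were picked after their values or letters were seen.

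The 20 genes with no promoter entry included Rpl3, Rpl7, Rpl8, Rpl17, Rpl21, Rpl23a, Rpl29, Rpl30, Rpl32, Rpl36, Rplp1, Rps14, Rps20, Rps27a and Rps29. Some items that a list or the rule would name are not reported here.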

Additional observations from a re-analysis of the deposited data

How the results depend on the processing

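In every alternative run, 0 ribosomal protein genes passed the test, in covered length and in width. The median covered-length difference of 0.094 was 0.016 when centred on the core ribosomal protein loci, a choice made after seeing the data, and 0.008 without centring. The median of all loci moved with it, to -0.043 and -0.052, by the construction of these scalings. The ribosomal protein median ranged from 0.07 to 0.128 with a heart left out. Over all loci, the 15 lower in edKO became 7 with the body and 2 kb, 6 with equal list lengths, 7 with each region given to its nearest gene (and 2 higher) and 30 when centred on ribosomal protein loci, all 15 among them. Without edKO 1, 3 or 6 there were 8, 4 and 9, and without WT 1, 3 or 4 there were 2, 0 and 1; higher loci numbered 0 to 1. In width, the 5 lower genes became 3 without centring and 0 to 9 with a heart left out, and the 0 higher became 1 with 500 bp around gene ends and 0 to 3 with a heart left out. With stricter lists the median fold percentile was 92.0 in edKO 6 and 90.9 in WT 4.

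Some single genes changed sign. With the body and 2 kb, Rps2, Rps7 and Rplp2 were at 0.098, 0.099 and 0.138. With the body alone, Rpl19, Rps2, Rps7 and Rplp2 were at 0.009, 0.053, 0.059 and 0.167. With the nearest gene alone, Rps2, Rps7, Rplp2 and Rpl4 were at 0.069, 0.114, 0.149 and -2.096. Rplp1 was at -0.048 when centred on ribosomal protein loci, -0.012 with equal list lengths, -0.056 without centring, and between -0.029 and 0.087 with a heart left out. Rps7 lay between -0.3 and 0.046 and Rps23rg1 between -0.43 and 0.494 with a heart left out. The cause was not tested.

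Hearts 1 and 3 exist in both genotypes, but nothing in the labels says that the numbers pair them. Deviations from the genotype means correlated at 0.179 for number 1 and 0.032 for number 3. Pairs of unlike number ran from -0.244 (edKO 6 with WT 1) to 0.143 (edKO 6 with WT 3). With the replicate number as a block, which leaves 1 residual degree of freedom, 90 loci were lower in covered length and 3 in width, none of them a ribosomal protein gene, and Rps23rg1 and Rplp2 were at -0.319 and 0.002. Peak lists without depth limit all of this to called length.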
